A study of Arabidopsis thaliana with 4 samples.

Results

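Transcripts whose level differed in the same direction between the paired-number arrays of both genotypes were examined in shoots of Arabidopsis thaliana. They were chosen by their measured values: replicate I minus replicate II had the same sign in php and in wild-type, was at least 0.8 log2 units in size in both, and the mean level over the 4 arrays was above 3. Of 22740 probe sets that are not controls, 14726 had a mean level above 3 and 140 were selected, 137 of them higher on replicate II and 3 higher on replicate I. A probe set is the group of short oligonucleotides that measures 1 transcript on the ATH1 array, and 1 log2 unit stands for a 2-fold difference. All 140 also passed the filter on dim probe sets that was used for the comparison of genotypes.

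The samples were php mutant plants and wild-type plants. PHP, short for PLANT HOMOLOGOUS TO PARAFIBROMIN, belongs to the PAF1 complex, a partner of elongating RNA polymerase II. Both genotypes were grown on soil, above-ground tissue was taken at 14 days of age, and no treatment is labelled for either. There were 2 arrays for php and 2 for wild-type, numbered I and II, and each array held RNA from 3 separately derived samples. The sources used here do not give the php allele, the hour of harvest, or what arrays with the same number share.

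Arabidopsis has a set of genes whose transcripts accumulate within minutes of touch, wounding, cold, or contact with microbial molecules. Many of them encode calcium sensors, transcription factors of the AP2/ERF, WRKY and C2H2 zinc finger families, and ubiquitin ligases, and their messages are typically short-lived.

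The medians over the 15918 probe sets tested were 7.21 and 7.21 on php I and php II and 7.23 and 7.23 on wild-type I and wild-type II, and the median replicate I minus II difference was 0.02 in php and 0.01 in wild-type. The photosynthesis genes LHCB4.1, LHCB4.2, PSBW and PSBY were at 13.46 to 14.55 on all 4 arrays, with replicate differences of -0.05 to 0.13. LHCB4.3, a dimmer member of the same family, was higher on replicate II in both genotypes, with differences of -0.33 in php and -0.08 in wild-type. The root hair gene EXPA7 and the flower genes AMS, SPL, INO and AT5G07230 were at 1.90 to 2.67, near the floor of the scale, while PYK10, abundant in roots, was at 12.31 and 12.17 in php and 11.67 and 11.87 in wild-type. The guard cell gene FMA was at 6.47 and 6.20 in php and 6.19 and 6.40 in wild-type. RBCS1A, LHCA4, KAT1 and TGG1 were not analysed here. Of the 24 poly(A) spike-in control probe sets, 19 were higher on replicate I in both genotypes, with medians of 0.23 in php and 0.20 in wild-type. The 18 hybridization spike-ins had medians of -0.07 in php and -0.05 in wild-type. The probe set for 25S rRNA was at 6.30 and 6.97 in php and 5.40 and 5.50 in wild-type, higher on replicate II in both. That for 5S rRNA had opposite signs, with replicate I minus II differences of -0.54 in php and 0.29 in wild-type. The part of these control differences in the values below was not tested.

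The 137 transcripts higher on replicate II had a median replicate I minus II difference of -1.76 in php, with a range of -4.25 to -0.80, and of -1.62 in wild-type, with a range of -4.69 to -0.80. These differences chose the members, so they carry no test. Their median levels were 5.63 on php I and 7.52 on php II, against 5.21 on wild-type I and 7.04 on wild-type II. The size was at least 1 in both genotypes for 103 of them, at least 1.5 for 66, at least 2 for 36 and at least 2.5 for 15. The 137 made up 0.930% of the 14726 probe sets above the level of 3, and the 3 higher on replicate I made up 0.0204%. A further 2 probe sets passed the size in both genotypes with opposite signs. In whole shoots, a change in the number of cells of a type and a change in RNA per cell cannot be told apart.

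**Figure D1:**
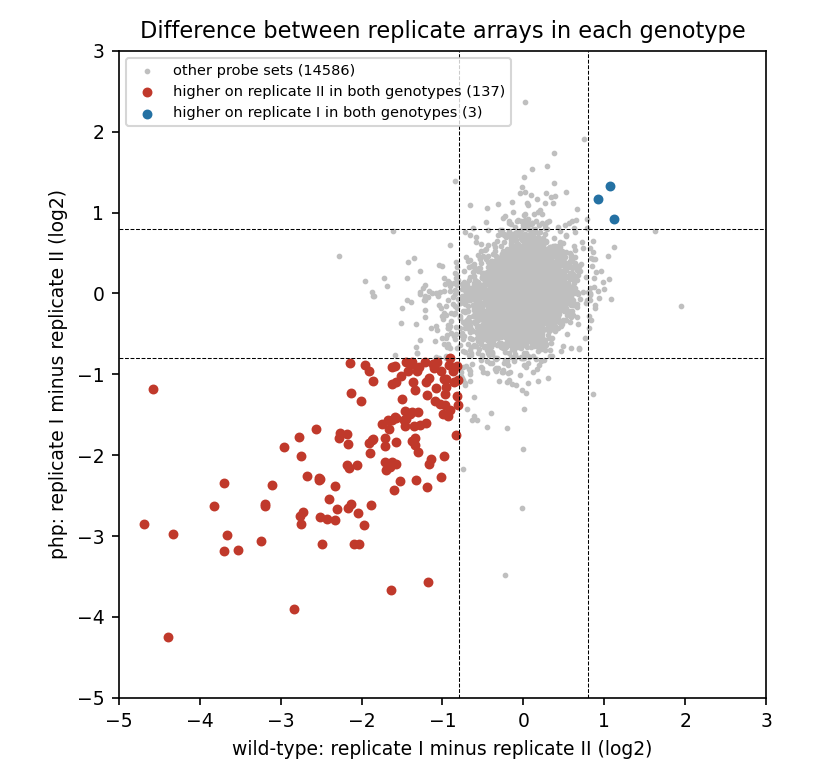
Replicate I minus replicate II in php (vertical axis, log2) against the same difference in wild-type (horizontal axis, log2). Each point is a probe set with a mean level above 3, dashed lines mark 0.8 log2 units, and coloured points are the 137 transcripts higher on replicate II and the 3 higher on replicate I in both genotypes.

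In php by itself, 211 probe sets were higher on replicate II by at least 0.8 and 78 were higher on replicate I by that size. In wild-type by itself the counts were 245 and 35. The 137 and the 3 are those that both genotypes share, as the scatter of php against wild-type differences displays, and since these are the values of the selection they are given as a description.

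Transcription factors of the rapid stress response were among the transcripts with the widest gap. ORA47, an AP2/ERF factor that activates jasmonate biosynthesis genes, was at 6.98 and 10.16 on php I and php II and at 5.59 and 9.29 on wild-type I and wild-type II. Replicate I minus II was -3.19 in php and -3.70 in wild-type. Both replicate II arrays stood above both replicate I arrays, and the php and wild-type ranges overlapped. STZ, also known as ZAT10, a C2H2 zinc finger repressor linked to salt tolerance, was at 7.15 and 10.14 in php and at 5.66 and 9.32 in wild-type. Its level on replicate II was 7.96-fold higher in php and 12.6-fold higher in wild-type, and again both replicate II arrays stood above both replicate I arrays. Within a genotype the selection required this order, for these genes and for those below, so it is no separate result. How many members show it across genotypes was not counted.

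The WRKY family gave 2 members of the 5 measured above the filter by a probe set named here. By comparison, the rule took 0.930% of all probe sets above a level of 3 as higher on replicate II. The family lists, here and below, were chosen with earlier results of these data known, so their counts are no independent evidence. WRKY53, a regulator of leaf senescence, was at 4.23 and 6.55 in php and at 4.89 and 6.41 in wild-type. WRKY22, which acts in immune signalling, was at 2.63 and 3.86 in php and at 1.96 and 4.09 in wild-type, so both of its replicate I values lay near the floor. The brightest of the other three, WRKY20, differed between replicates by 0.09 in php and 0.04 in wild-type. WRKY6 had differences of 0.27 in php and -0.35 in wild-type, with opposite signs.

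Calcium sensors of the calmodulin family contributed CML38 and CML23, of 5 tested genes with a symbol of the family. Over all probe sets above a level of 3 the share was 0.930%. Genes that carry a locus number alone were not sorted into this or other families, so further members may belong to it. CML38 was at 6.77 and 9.54 in php and at 5.97 and 8.48 in wild-type, a 6.80-fold and a 5.70-fold higher level on replicate II. CML23 was at 5.37 and 7.01 in php and at 5.04 and 6.50 in wild-type, with replicate I minus II differences of -1.64 and -1.46. For both genes each replicate II array exceeded each replicate I array. CML37, by contrast, was at 2.59 to 2.77 on all 4 arrays, close to the floor.

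The U-box ubiquitin ligase PUB23, which damps immune signalling, was the 1 member among 7 tested genes with a U-box ligase symbol. The share over all probe sets above a level of 3 was 0.930%. It was at 5.81 and 7.93 in php and at 5.94 and 7.10 in wild-type, higher on replicate II by 4.33-fold in php and 2.24-fold in wild-type. Its close relative PUB22 was at 2.94 and 4.60 in php and at 2.77 and 2.97 in wild-type. PUB22 thus stood out on php II alone and did not meet the selection in wild-type.

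Further members were named after their values were seen and have other functions. TET8, a tetraspanin of the cell membrane and of extracellular vesicles, was at 9.80 and 10.84 in php and at 9.50 and 10.67 in wild-type. SRC2, a C2-domain protein, was at 10.81 and 11.69 in php and at 10.45 and 11.38 in wild-type, the highest mean level of all 140. COR27, a cold-regulated gene that also acts in the circadian clock, was at 5.63 and 7.17 in php and at 4.51 and 6.09 in wild-type. For TET8, SRC2 and COR27 each replicate II array exceeded both replicate I arrays. AR781 was at 7.95 and 9.51 in php and at 7.52 and 9.20 in wild-type. AT5G52050, listed among the RefSeq synonyms as DTX50, a transporter of the MATE family, was at 3.53 and 5.39 in php and at 2.82 and 4.98 in wild-type.

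Most members have no gene symbol in the annotation used. Of the 140, 65 were assigned to 1 gene, 3 to several and 72 to none, so 46.4% had a single gene, against 55.9% of the probe sets tested. Apart from 11 with a symbol and AT5G52050 with its synonym, the named ones carry a locus number alone and are given without a role. AT4G29780 was at 6.50 and 9.47 in php and at 3.91 and 8.24 in wild-type, a 20.1-fold higher level on replicate II in wild-type and 7.88-fold in php. AT3G10930 was at 3.20 and 7.11 in php and at 2.48 and 5.32 in wild-type, and here the gap was wider in php, at -3.91 against -2.83 in wild-type. AT1G15010 was at 2.59 and 5.76 in php and at 2.12 and 5.64 in wild-type, with both replicate I arrays under a level of 3. In all 3 loci the 2 replicate II arrays exceeded the 2 replicate I arrays. The other loci among the 12 with the widest gap were AT1G05575, AT3G48650, AT3G04640, AT1G66090, AT4G27652 and AT5G17350, with differences of -3.10 to -2.28 in php and -3.10 to -2.03 in wild-type. The largest smaller difference of the 2 genotypes belonged to a probe set with no gene assigned, at 3.58 and 7.83 in php and at 2.08 and 6.48 in wild-type.

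**Figure D2:**
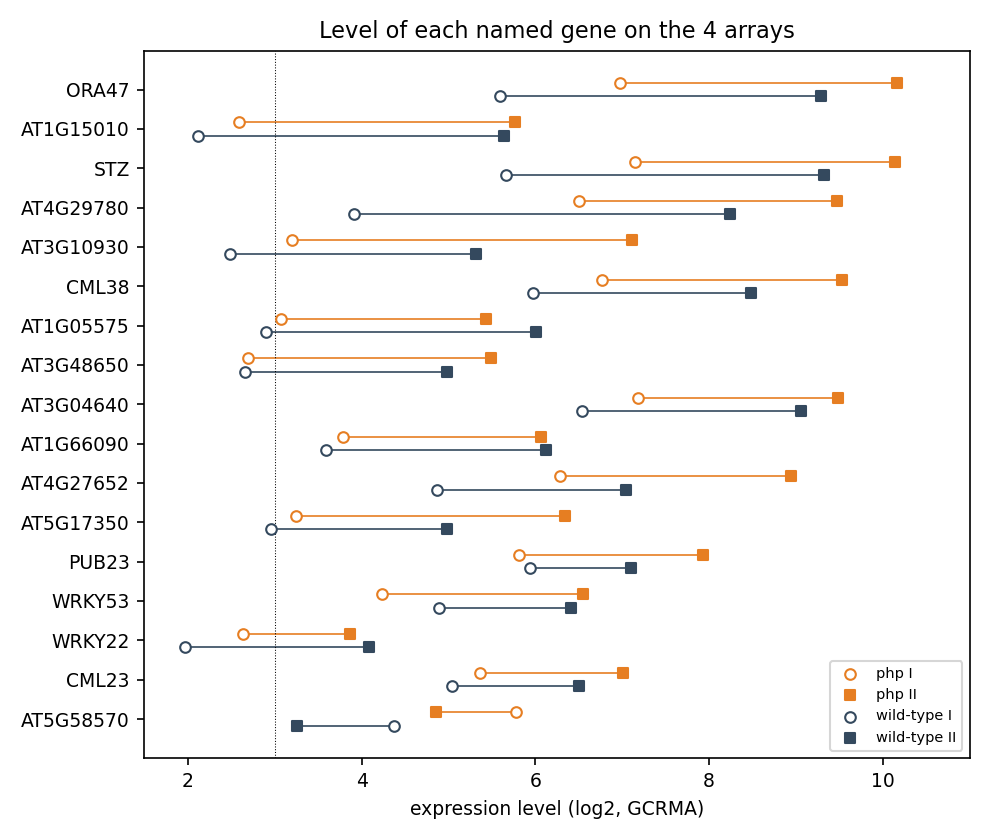
Level (log2, GCRMA) of each gene named by the selection rule on the 4 arrays: php above wild-type in each pair of lines, open circles for replicate I and filled squares for replicate II, with a dotted line at a level of 3. Replicate II lies to the right in both genotypes for every gene except AT5G58570, which is higher on replicate I.

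Some members lie next to each other in the genome. In the RefSeq gene order, AT4G27652, AT4G27654 and AT4G27657 on chromosome 4 follow each other with 0 gene models between them. AT4G27652 was at 6.28 and 8.94 in php and at 4.87 and 7.04 in wild-type. AT4G27654 was at 3.43 and 6.04 in php and at 2.81 and 4.70 in wild-type, and AT4G27657 was at 3.04 and 6.71 in php and at 2.25 and 3.88 in wild-type. AT4G27654 and AT4G27657 were named after their values were seen, and all of the trio were higher on replicate II in both genotypes. Whether their probes share targets was not tested. On chromosome 1, AT1G72900, AT1G72920 and AT1G72940 have 2 gene models between each neighbouring pair, and their differences ran from -2.43 to -1.47 in php and from -1.60 to -1.20 in wild-type. Of the 64 transcripts higher on replicate II that have a locus, chromosome 1 held 25 (1.09% of its 2291 tested genes), and chromosome 5 held 7 (0.342% of 2045). Chromosomes 2, 3 and 4 lay between, at 0.766%, 0.611% and 0.870%, and no test was made of these shares.

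Bright and dim members had similar gaps. The 40 members with a mean level under 5 had median differences of -1.86 in php and -1.57 in wild-type, the 66 from 5 to under 8 had -1.76 and -1.61, and the 31 at 8 or above had -1.62 and -1.62. Dim values limit some members: 8 were at or under a level of 3 on php I and 19 on wild-type I, 6 of them on both, and none on a replicate II array. The selection required a gap of at least 0.8 in both genotypes, so some likeness of the gaps is built in. The gap was larger in php for 70 members and in wild-type for 67. The sizes were within 0.5 of each other for 85 and over 1 apart for 17. The most unequal was a probe set with no gene assigned, at 5.23 and 6.41 in php and at 5.22 and 9.80 in wild-type, which stood high on wild-type II alone.

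The 3 transcripts higher on replicate I had replicate differences of 0.93 to 1.32 in php and 0.92 to 1.12 in wild-type. AT5G58570 was at 5.78 and 4.85 in php and at 4.38 and 3.26 in wild-type. The other two have no gene assigned and were at 5.07 and 3.74 in php with 3.72 and 2.65 in wild-type, and at 6.10 and 4.93 in php with 5.88 and 4.96 in wild-type. Near the threshold on the replicate II side, AT4G33980 (-1.07 in php, -0.80 in wild-type) and AT3G01830 (-1.38 in php, -0.80 in wild-type) lay just inside. Just outside lay a probe set with no gene assigned (-0.80 and -1.08) and the expansin-like gene EXLA1 (-0.80 and -1.05), whose php differences round to 0.80 but fall short of it. On the replicate I side AT5G58570 and an unassigned probe set lay inside, at sizes of 0.93 and 0.92, and AT5G08110 and another unassigned probe set outside, at 0.79 and 0.79.

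Gene lists put the members in context. Of 40 loci on a list of rapid stress and touch genes, 9 were measured and tested by a probe set named here, and 5 of the 9 were members (STZ, CML38, PUB23, WRKY53 and WRKY22). The list was drawn up with earlier results of these arrays known, so its count is no independent evidence. Of the 9, 7 were higher on replicate II in both genotypes and 1 was higher on replicate I in both. The 1 was AT1G76640, at 5.06 and 2.70 in php and at 2.52 and 2.51 in wild-type, high on php I alone. Their median differences were -1.67 in php and -1.16 in wild-type, against 0.02 and 0.01 over all probe sets tested. No member came from the lists of photosynthesis (5 tested, medians 0.08 in php and 0.00 in wild-type), flavonoid and anthocyanin (6 tested, -0.02 and -0.45), cold and abscisic acid (3 tested, -0.36 and -0.21), xyloglucan endotransglucosylases (6 tested, 0.06 and 0.01), expansins (10 tested, 0.05 and 0.01), tau and phi glutathione transferases (6 tested, 0.15 and 0.14) or cytochrome P450s (14 tested, 0.13 and 0.17). The lists of jasmonate (3 tested), circadian clock (1), sugar starvation and darkness (2), salicylate defence (1), early auxin response (5) and starch turnover (1) also held none. COR27, the cold-regulated member described above that acts in the clock, was not among the genes tested on the cold or clock list. These counts therefore depend on which genes were listed and measured. Over all probe sets above a level of 3 the rule took 0.930% as higher on replicate II. Lists of 1 to 14 tested genes would mostly hold none at that share, so the absence of members says little about them. By gene symbol, AP2/ERF factors gave ORA47 of 2 tested, and C2H2 zinc fingers gave STZ, the 1 tested. Of the 28 lists, 17 were family lists filled by gene symbol. Members that carry a locus number alone could not enter those, so the counts can miss genes of a family. Lists of heat shock, light, nutrient, MYB, JAZ, B-box, trehalose phosphate and lipid transfer genes had no tested gene here.

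**Figure D3:**
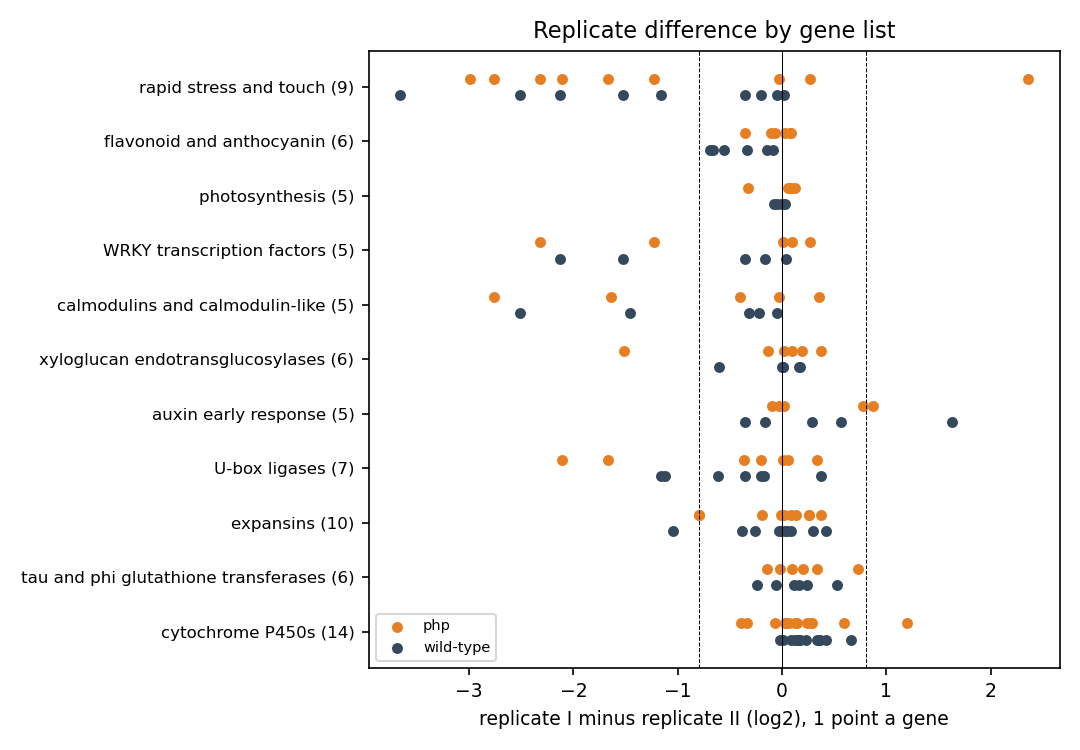
Replicate I minus replicate II (log2) of every tested gene on the lists with at least 5 tested genes, php above wild-type in each row, 1 point a gene, with dashed lines at 0.8 log2 units. Points of the rapid stress and touch list reach -2.99 in php and -3.66 in wild-type, and those of photosynthesis stay between -0.33 and 0.13.

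Whether the same transcripts also differ with genotype was read from php against wild-type, a contrast that the selection did not use directly. The members' median difference, php minus wild-type, was 0.37 over the 140, against 0.01 over all 15918 tested. It was 0.38 between the replicate I arrays and 0.36 between the replicate II arrays. For 97 of the 140 (69.3%) php was higher on the arrays of both numbers, against 39.7% of all tested, and for 11 (7.86%) it was lower on both, against 34.6%. The mean difference was at least 1 for 25 members (17.9%), against 0.609% of all tested, and -1 or below for 2 (1.43%), against 0.440%. Those 25 were 25.8% of the 97 probe sets that reached a difference of 1. The selection took transcripts that vary widely between arrays, and such transcripts can reach a difference of 1, in either direction, more often than steady ones. How much this adds to the shares at that size was not tested. More members lay higher in php than lower, 97 against 11 on the arrays of both numbers and 25 against 2 at a size of 1. The cause of that imbalance was not tested. These shares are by themselves no evidence of an effect of genotype.

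None of these differences passed the test. limma, fitted over all 15918 probe sets with Benjamini-Hochberg adjustment, called 5 (0.0314%) at an adjusted p under 0.05 and 0 of the 140 members, whose lowest adjusted p was 0.198. At an unadjusted p under 0.05 it gave 2 members (1.43%), against 24.2% of all tested. The selection took transcripts with a wide spread within each genotype, and that spread is the error of this test. Because each member was chosen for a gap between replicates, leaving out 1 array shifts php minus wild-type by construction, so the values that follow do not bear on stability. The members' median difference was 1.15 without php I, -0.44 without php II, -0.40 without wild-type I and 1.21 without wild-type II. With 2 arrays a genotype, the smallest two-sided p of an exact permutation test is 0.333.

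Among single genes, AT4G29780 had the widest difference in favour of php, at 1.91 with a standard error of 1.86 (limma adjusted p = 0.557). ORA47 differed by 1.13 with a standard error of 1.73 (limma adjusted p = 0.711), and STZ by 1.15 with a standard error of 1.68 (limma adjusted p = 0.695). COR27, named after its values were seen, differed by 1.09 with a standard error of 0.78, and its interval ran from -1.09 to 3.28 (limma adjusted p = 0.438). AT5G58570, higher on replicate I, was the member with an unadjusted p under 0.05 that lay higher in php, with means of 5.32 in php and 3.82 in wild-type and an interval of 0.05 to 2.94 for the difference (limma adjusted p = 0.199). The other one was a probe set with no gene assigned, at 4.66 and 6.49 in php and 7.26 and 8.64 in wild-type, with a difference of -2.37 and an interval of -4.63 to -0.10 (limma adjusted p = 0.198). WRKY53 and AT1G05575 were the 2 genes named by the rule with a lower mean in php, by -0.26 and -0.20. The remaining members named by the rule lay between 0.07 for AT1G66090 and 1.66 for AT4G27652, each with an interval that includes 0.

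**Figure D4:**
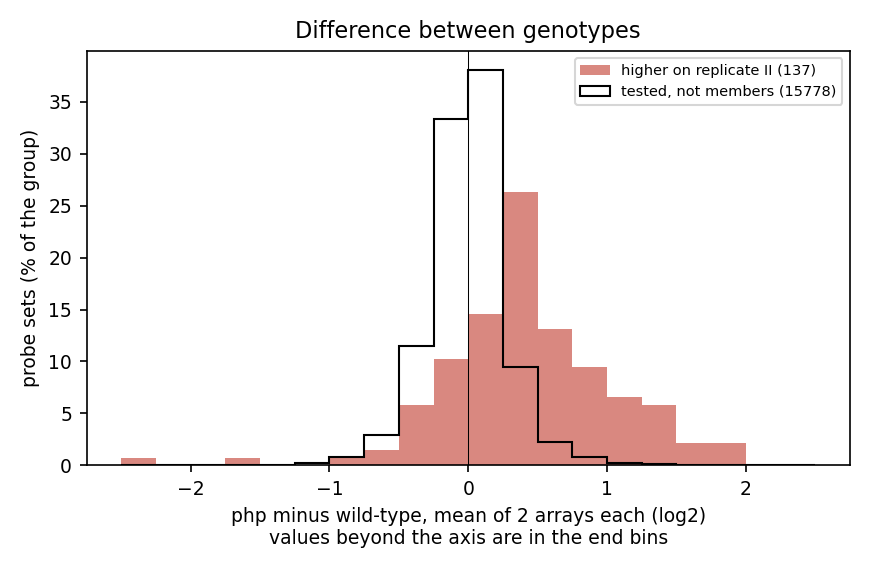
Distribution of php minus wild-type (log2, mean of 2 arrays each) for the 137 transcripts higher on replicate II (filled) and the 15778 probe sets tested that are not members (outline), as a percentage of each group. The filled bars lie to the right, around a median of 0.37, and the outline is centred near 0.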

How the data were processed

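Total RNA from above-ground tissue was hybridized to 4 Affymetrix ATH1 arrays, 2 a genotype. The deposited log2 values were made by the authors with GCRMA, which corrects background and normalizes arrays together, per the series' design text. The submitters' processing notes also name MAS5, without a role, and the sources used here give no software versions. Arrays have no read depth, so their number limits the precision.

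Of 22810 probe sets, 64 controls and 6 probe sets named by the selection rule were left out. The selection used the deposited values without further normalization. For php against wild-type, the lowest 30% by mean level (up to 2.64) were left out, which left 15918. They were tested with limma 3.58.1 in R 4.3.3 (lmFit, eBayes with a trend, two-sided, 95% intervals, Benjamini-Hochberg over all tested, 2 residual and 1.99 prior degrees of freedom). The procedure was also run on simulated data in which the arrays were independent. A shift shared by arrays with the same number was not simulated, so that run does not bear on the members. P-values measure the spread between these arrays. Tables used pandas 2.3.3 and numpy 2.4.6 in Python 3.11.15, and figures matplotlib 3.10.9.

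Gene names came from the platform annotation, with loci and gene order from RefSeq (TAIR10.1), which matched 63 of the 65 members with 1 gene by gene identifier. Members, the 28 gene lists and tests were chosen with earlier results of these data known. CP1 and TPP2, caught by name alone, were taken off 2 lists because RefSeq names them as proteases. The genes named are, in each direction, the 12 members with 1 gene and the largest smaller difference, all members on a list, those beside the threshold, and up to 4 other genes a list. The alternatives tried were other dim filters, variance models, normalizations, sizes and levels, a replicate block, and leaving out each array.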

Additional observations from a re-analysis of the deposited data

How the results depend on the processing

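The 137 transcripts higher on replicate II numbered 97 to 182 under the other sizes, levels and normalizations, with 132 shared under quantile normalization and 136 under median centring. Those higher on replicate I, 3 as reported, numbered 14 at a size of 0.6, 1 at a size of 1 and 1 at a level above 5. Opposite signs, 2 as reported, numbered 9 at a size of 0.6 and 0 at a size of 1 or at a level above 4 or 5. The selection needs all 4 arrays, so no array could be left out of it. Between genotypes, limma called 5 probe sets as reported, 0 with no filter (8017 at an unadjusted p under 0.05), 21 with a stricter filter (11370 tested), 9 with median centring and 0 to 0 with 1 array left out (1915 to 4024 unadjusted). The cause was not tested. No member was called under any alternative. With 1 array left out, the lone array is assumed to vary like the others.

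With a replicate block, limma called 0 probe sets (4312 unadjusted), and 73 of 140 members (52.1%) had an unadjusted p under 0.05, 69 of them higher in php, against 27.1% of all tested. The labels do not say what a number shares, and the 2 pairs do not settle a pairing. Across 15918 probe sets, which are not independent, the replicate differences of php and wild-type correlated at r = 0.51, and at 0.21 without the members. Agreement of these same differences chose the members, so leaving them out lowers r by construction.

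With 1 array left out, php minus wild-type ranged from -0.72 to 2.98 for ORA47, -1.47 to 2.06 for AT1G15010, -0.68 to 2.98 for STZ, -0.26 to 4.08 for AT4G29780, -0.70 to 3.21 for AT3G10930, -0.46 to 2.31 for CML38, -1.75 to 1.35 for AT1G05575, -1.12 to 1.68 for AT3G48650, -0.73 to 1.79 for AT3G04640, -1.19 to 1.34 for AT1G66090, -0.72 to 2.38 for AT5G17350, -0.71 to 1.41 for PUB23, -1.42 to 0.90 for WRKY53, -0.84 to 1.29 for WRKY22 and -0.41 to 1.23 for CML23. It stayed above 0 for AT4G27652, AT5G58570, COR27, AT2G41640 and AT4G33980. These shifts follow from the selection for a gap between replicates. The floor of the scale limits the 21 members at or under a level of 3 on a replicate I array and the 1 at or under it on a replicate II array.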

Other observations

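Some genes named after their values were seen ran the other way, higher on replicate I, without meeting the selection. IAA29, an early auxin response gene, was at 7.05 and 6.28 in php and at 6.19 and 4.55 in wild-type, with a php difference of 0.77. GH3.3, which conjugates auxin to amino acids, was at 8.66 and 7.79 in php and at 7.55 and 6.98 in wild-type. Of the 5 early auxin response genes tested, 3 were higher on replicate I in both genotypes and 2 were higher on replicate II in both. The latter were IAA18 (-0.10 in php, -0.16 in wild-type) and GH3.17 (-0.03 in php, -0.36 in wild-type). The list medians were 0.02 in php and 0.29 in wild-type. The thionin gene THI2.1, a jasmonate-responsive defence gene, was at 5.90 and 3.99 in php and at 3.85 and 3.09 in wild-type. For IAA29, GH3.3 and THI2.1 php I was the highest array and wild-type II the lowest. The probe set of the defensin gene PDF1.2b, of a type whose probes are shared with related transcripts, so that its gene is uncertain, passed the size in wild-type alone, at 6.76 and 6.92 in php and at 7.89 and 5.94 in wild-type.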
